A study of Drosophila melanogaster with 4 samples.

Results

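Plasmatocytes, the macrophage-like blood cells of the fly, were examined in single nucleus RNA sequencing data from Drosophila melanogaster brains. A nucleus was counted as a plasmatocyte nucleus when at least 3 of 7 blood cell genes (Hml, NimC1, Pxn, He, eater, srp and Sr-CI) each had at least 1 unique molecular identifier (UMI, a tag that makes every count 1 RNA molecule) and when repo, the general marker of glia, had none. By this rule 466 of 69415 nuclei were plasmatocyte nuclei. Male and female Canton S (B) flies were used, a laboratory strain that the study's results list as w1118 Canton S (B). The study names no transgene. The flies received either medium with 250 µM NaAsO2, the sodium salt of arsenite, or control medium (0 µM) for 6 days. For each library, 10 brains of 1 sex and treatment were pooled. The flies were 3 to 5 days old, by the study's methods, when exposure began. The 4 libraries were female NaAsO2, female control, male NaAsO2 and male control, with no replicate library, so the intervals below cover counting error only and no test across flies was possible.

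Plasmatocytes make up most of the circulating and tissue-bound blood cells of the fly. They engulf bacteria and dying cells through scavenger receptors and Nimrod family receptors, secrete basement membrane proteins such as type IV collagen, and release clotting factors and lectins. They are formed under the GATA factor srp and survive through the growth factor receptor Pvr. In the adult head they lie outside the brain proper, along with fat body, and both tissues can come along when brains are dissected.

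The libraries held 25332, 19188, 10000 and 14895 nuclei in female NaAsO2, female control, male NaAsO2 and male control brains, with 33235404 to 53360256 UMIs per library. The male NaAsO2 library stood apart. Its shallowest nucleus had 1766 UMIs, against 500 in each of the other 3 libraries, and its median nucleus had 2665.5 UMIs, against 1374 to 2222 in the others. Every statement about treated males rests on that 1 library, and the female comparison does not use it. Pairs of libraries shared 45 to 135 cell barcodes, at most 0.75% of the smaller library, and no barcode was shared between the plasmatocyte nuclei of 2 libraries.

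The label was checked against 18 other genes of the plasmatocyte marker list of the study, none of which the rule used. That list was chosen on these same samples, so it is no independent evidence of identity. The UMIs of these 18 genes made up 5.56%, 1.93%, 1.29% and 3.97% of the UMIs of the median plasmatocyte nucleus in female NaAsO2, female control, male NaAsO2 and male control brains, whereas in the summed other nuclei the share was between 0.0394% and 0.0618%. Plasmatocyte nuclei of all 4 libraries therefore carried more of this RNA than the remainder of the brain, and those of treated males carried least.

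The rule has a threshold, and nuclei close to it differed between libraries. Just outside it, with 2 rule genes, were 192, 129, 148 and 136 nuclei in female NaAsO2, female control, male NaAsO2 and male control brains, and their median share of the 18 genes was 0.0604%, 0.0415%, 0.0674% and 0.135%. Just inside, with 3 rule genes, were 33, 23, 27 and 37 nuclei, with medians of 1.92%, 1.12%, 0.156% and 1.95%. In treated males the nuclei just inside thus stood close to those just outside, and in the other libraries they did not. Of all plasmatocyte nuclei, 19 of 59 in male NaAsO2 brains (32.2%) had under 0.5% of their UMIs in the 18 genes, against 6 of 162 (3.70%) in male control brains, and the counts were 10 of 164 (6.10%) in female NaAsO2 and 11 of 81 (13.6%) in female control brains.

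**Figure D1:**
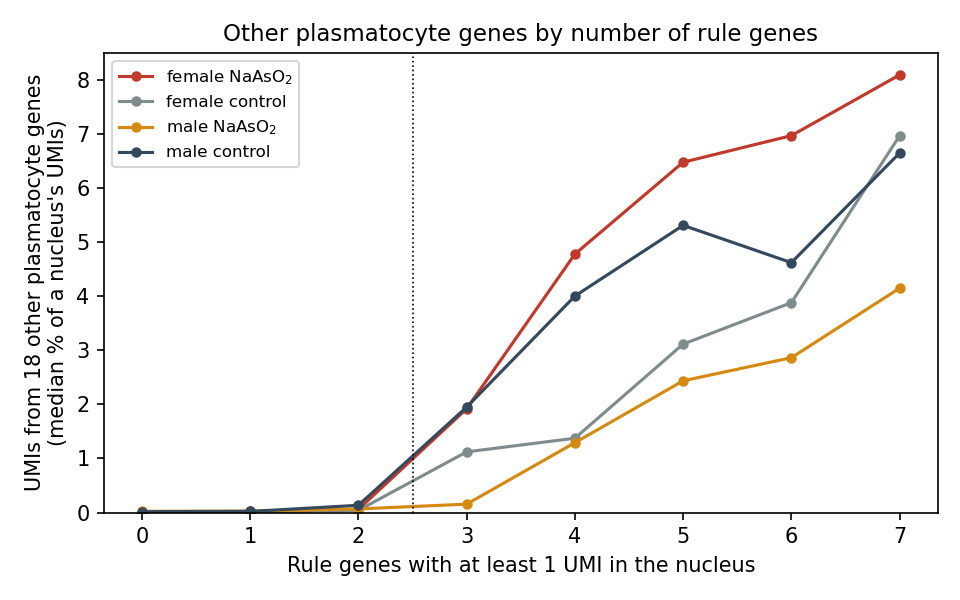
Median share of a nucleus's UMIs from 18 plasmatocyte genes that the rule did not use (y axis, percent) by the number of rule genes with at least 1 UMI (x axis), in nuclei with no repo UMI, with 1 line for each library. Right of the dotted line are the plasmatocyte nuclei, where male NaAsO2 nuclei with 3 rule genes had a median of 0.156%, against 1.95% in male control nuclei.

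The 7 rule genes were found at different rates, which describes the rule and is not a finding. Hml, which encodes the clotting protein Hemolectin, had a UMI in 100%, 98.8%, 89.8% and 98.1% of the plasmatocyte nuclei of female NaAsO2, female control, male NaAsO2 and male control brains. In neuron-marked nuclei, which should lack it, the range was 1.48% to 2.52%, at median depths of 1443 to 2666 UMIs against 1674.5 to 3721 UMIs in plasmatocyte nuclei. The scavenger receptor gene Sr-CI was found in 74.6% to 88.9% of plasmatocyte nuclei and the phagocytosis receptor gene NimC1 in 59.3% to 82.3%, while neuron-marked nuclei stayed below 1% for both. He, which encodes the blood cell surface protein Hemese, was found in 3.70% to 7.32% and so added few members. Pxn, which encodes the matrix enzyme Peroxidasin, was found in 80.5% to 88.1% of members but also in 17.7% to 29.3% of neuron-marked nuclei, so that a UMI of Pxn alone separates these nuclei less sharply. The transcription factor gene srp was found in 33.3% to 57.6% of members and also in 7.79% to 14.1% of fat body-marked nuclei, which is a second tissue that uses it.

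RNA of other cell types was present in most plasmatocyte nuclei, and its amount differed between libraries. Of the plasmatocyte nuclei, 73.2%, 93.8%, 100% and 82.1% in female NaAsO2, female control, male NaAsO2 and male control brains held at least 2 UMIs summed over the neuronal genes elav, nSyb, Syt1 and brp, with medians of 5, 13, 21 and 6 such UMIs. In CPM (UMIs of a gene per 1000000 UMIs summed over the same group of nuclei), the 10 neuron markers summed to 5036, 9483, 9210 and 5463 in plasmatocyte nuclei, against 11123, 11911, 11605 and 10352 in the other nuclei. Plasmatocyte nuclei of female control and male NaAsO2 brains were thus nearer in neuronal RNA to the other nuclei than those of the remaining libraries were. The plasmatocyte nuclei with under 2 neuronal UMIs numbered 44, 5, 0 and 29, and in the 3 libraries that had any the 18 plasmatocyte genes took 8.73%, 6.73% and 8.82% of their summed UMIs. The source of the neuronal RNA was not tested.

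At least 1 of 8 fat body markers had a UMI in 98, 51, 40 and 109 plasmatocyte nuclei of female NaAsO2, female control, male NaAsO2 and male control brains, but few nuclei held many of them. The 8 markers were Nplp2, CG2233, CG6503, Obp99c, TotX, CG17108, IM33 and Bbd. Counting a nucleus as fat body-marked when at least 5 of 8 fat body markers had a UMI, 6, 6, 10 and 14 plasmatocyte nuclei were marked. These few nuclei had medians of 20725.5, 7765, 8534 and 4867 UMIs, but not all were deep, and 1 in male NaAsO2 brains had 3249. They held 30.8%, 24%, 51.7% and 32.0% of all plasmatocyte UMIs, and the deepest single nucleus held 10.1%, 10.6%, 18.8% and 12.7%. The summed 8 markers stood at 14221, 2097, 1368 and 24554 CPM over all plasmatocyte nuclei and at 1552, 773, 753 and 1481 CPM without the marked ones, against 340, 189, 550 and 1082 CPM in the nuclei that did not meet the rule. The fall without the marked ones follows in part from how they were defined. Glial markers stood at 681 to 1037 CPM, against 884 to 1341 CPM in the other nuclei. In male NaAsO2 brains the plasmatocyte nuclei (1037 CPM) were above the other nuclei (884 CPM), and in the remaining libraries they were below. No more than 42 CPM came from the 7 muscle markers and 75.1 CPM from the 5 tracheal markers.

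**Figure D2:**
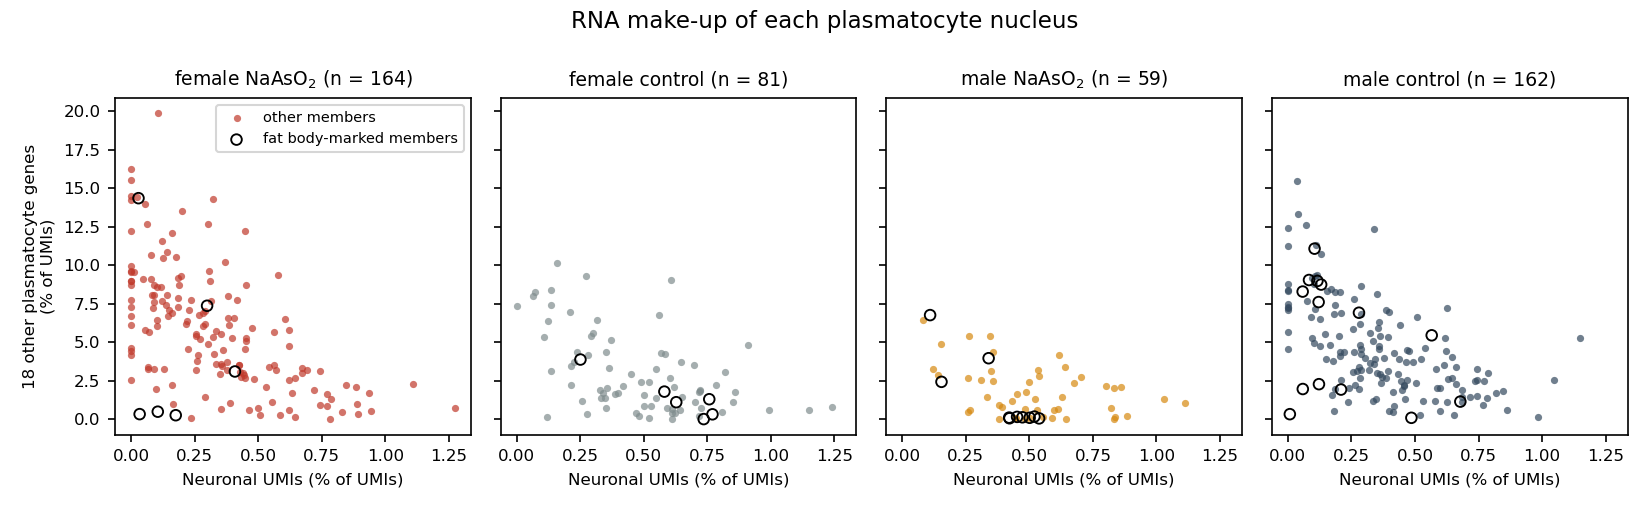
Each point is 1 plasmatocyte nucleus, with the share of its UMIs from 4 neuronal genes on the x axis and from 18 plasmatocyte genes that the rule did not use on the y axis (both in percent), in 1 panel for each library. Open circles are fat body-marked nuclei. Medians on the y axis are 5.56%, 1.93%, 1.29% and 3.97% in female NaAsO2, female control, male NaAsO2 and male control brains, and nuclei with much neuronal RNA lie low.

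The share of plasmatocyte nuclei in a library was higher in treated females and lower in treated males than in the control library of the same sex. In females it was 0.647% of nuclei with NaAsO2 (164 of 25332, exact binomial 95% interval 0.552% to 0.754%) and 0.422% in the control (81 of 19188, 0.335% to 0.524%). In males it was 0.590% with NaAsO2 (59 of 10000, 0.449% to 0.760%) and 1.09% in the control (162 of 14895, 0.927% to 1.27%). The male intervals did not overlap, nor did the female ones, but these intervals leave out the differences between dissections.

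Depth moved these shares. When every nucleus was thinned to 1000 UMIs, which left out 7013, 1718, 0 and 2417 shallower nuclei in the order above and 27, 7, 0 and 38 plasmatocyte nuclei among them, the shares were 0.628%, 0.246%, 0.19% and 0.753%. Among nuclei with at least 1766 UMIs they were 0.870%, 0.478%, 0.590% and 0.985%. The order within each sex was the same in both cases, while the gap in males was wider after thinning and narrower among deep nuclei. With at least 4 rule genes 131, 58, 32 and 125 nuclei remained, or 0.517%, 0.302%, 0.320% and 0.839%. With at least 2 rule genes the male shares were 2.07% with NaAsO2 and 2.0% in the control, so the treated share was no longer the lower one. The 148 nuclei that this added in treated males are those with a median of 0.0674% in the 18 genes.

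**Figure D3:**
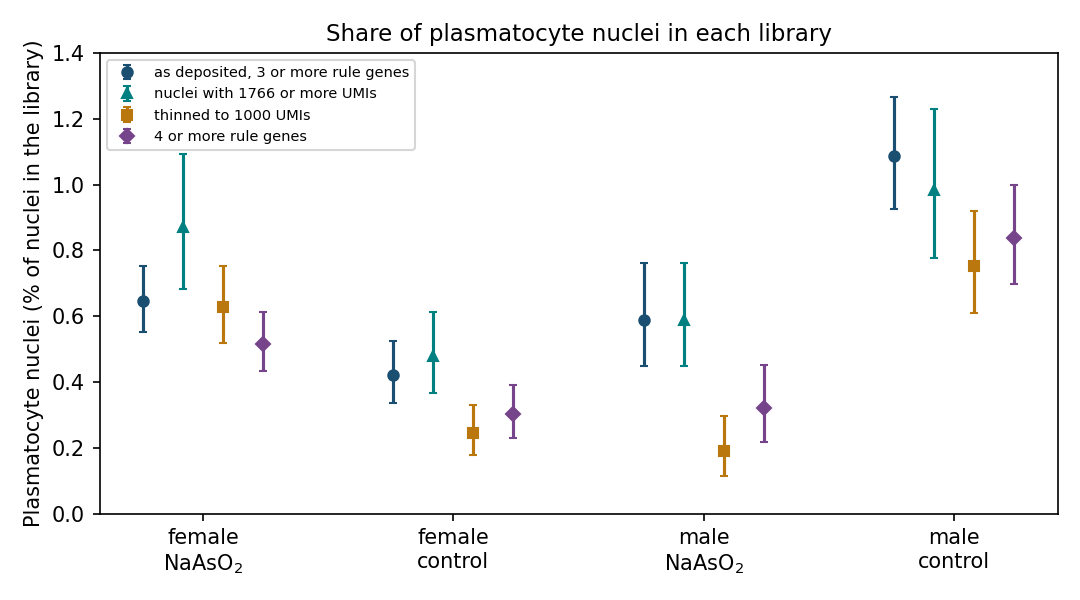
Plasmatocyte nuclei as a percent of all nuclei in each library (y axis), with exact binomial 95% intervals that cover counting error only, under 4 choices of depth and of the number of rule genes. In each of the 4 the female NaAsO2 point is above the female control point and the male NaAsO2 point below the male control point.

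The genes that set plasmatocyte nuclei apart included matrix, receptor and lectin genes, and also genes without a given name, such as CG4950 and CG5080. Ppn, which encodes the matrix glycoprotein Papilin (chromosome 3R, 28520665 to 28540324, release 6), had the highest ratio over other nuclei, at 9246, 4934, 2390 and 6603 CPM in female NaAsO2, female control, male NaAsO2 and male control plasmatocyte nuclei and 14.3 to 30.8 CPM in the other nuclei. Hml (chromosome 3L, 13846054 to 13860001), a rule gene and so given as a description only, stood at 6121, 3412, 1223 and 4999 CPM, against 8.03 to 21.9 CPM in the other nuclei. The C-type lectin gene lectin-28C (chromosome 2L, 7857077 to 7860120) stood at 4482, 1418, 521 and 3925 CPM, against 5.88 to 22.5 CPM. For Ppn and lectin-28C, which the rule did not use, treated females were highest and treated males lowest.

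A set of 60 genes was at least 16-fold higher in plasmatocyte nuclei than in other nuclei, on the mean of log2 (CPM + 5) over the 4 libraries, and is called plasmatocyte-enriched here. Beside the rule genes other than He and Pxn it held the collagen genes Col4a1 and vkg, the laminin genes LanA, LanB1 and LanB2, SPARC, the Nimrod genes NimB1, NimB2, NimB4, NimB5 and NimC2, the peptidoglycan receptor gene PGRP-LC, the chitinase-like genes Idgf1 and Idgf2, the Notch ligand gene Ser and the GATA factor gene pnr. Inos, which encodes an enzyme of inositol synthesis, and the nicotinic receptor subunit gene nAChRbeta3 also belonged to it. Genes were placed in this set by the counts of the same nuclei, so it describes the members.

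Genes of the other fly blood cells had most of their UMIs in few nuclei. PPO2, a prophenoloxidase gene of crystal cells, had 298, 15, 35 and 44 UMIs in female NaAsO2, female control, male NaAsO2 and male control plasmatocyte nuclei, in 18, 6, 15 and 8 nuclei. In treated females 211 of the 298 UMIs lay in 1 nucleus of 9045 UMIs, which also held 125 of the 215 UMIs of PPO1, the second prophenoloxidase gene, 22 of the 27 UMIs of the crystal cell factor gene lz and 131 UMIs of Hml. In treated males 1 nucleus held 15 PPO2 UMIs and 26 of the 31 lz UMIs. No UMI of lz was counted in the 162 male control members. The female log2 ratios were 5.20 for PPO1 and 3.76 for PPO2, and without that treated female nucleus they were 3.97 and 2.02, with 90 and 87 UMIs left. ItgaPS5, an integrin gene of lamellocytes, had no UMI in the plasmatocyte nuclei of any library, and ItgaPS4, another one, had none in those of either female library.

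Within each sex, the UMIs of a gene were summed over the plasmatocyte nuclei of a library and expressed as CPM of the summed total, which was 452728, 309506, 407053 and 418297 UMIs in female NaAsO2, female control, male NaAsO2 and male control brains. Of 2501 genes with at least 50 UMIs in females, 344 (13.8%) were at least 2-fold higher with NaAsO2 than in the control and 233 (9.32%) at least 2-fold lower. Of 2584 genes in males, 201 (7.78%) were at least 2-fold higher and 297 (11.5%) at least 2-fold lower. Over these same genes without the fat body-marked nuclei, 225 were at least 2-fold higher and 136 lower in females. In males 99 were higher and 244 lower in that setting. The median log2 ratio over all genes was -0.07 in females and 0.21 in males. These are the backgrounds for the groups below, and they count libraries that differ in depth and in neuronal RNA, not changed genes.

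The plasmatocyte-enriched genes were higher in treated females and lower in treated males. In females all 60 had a log2 ratio above 0, from 0.70 to 2.12 with a median of 1.10, and 38 were at least 2-fold higher, against 13.8% of all genes. In males all 60 were below 0, from -3.51 to -0.14 with a median of -2.08, 55 of them with an interval below 0, and 52 were at least 2-fold lower, against 11.5% of all genes. The set holds 5 rule genes, and without these 37 of 55 were at least 2-fold higher in females (median 1.12) and 48 of 55 at least 2-fold lower in males (median -2.14). Without the fat body-marked nuclei the medians of the 60 were 1.19 and -1.70, with 46 at least 2-fold higher in females and 48 at least 2-fold lower in males, and 4 male ratios (CG32091, NimC2, Sema5c and Traf4) were then above 0. The 10 neuron markers moved the other way, with medians of -0.90 in females and 0.71 in males, and their part in these ratios was not tested. Among the nuclei with under 2 neuronal UMIs, 44 treated and 5 control nuclei in females, the female median was 0.31. That was close to the median of 0.23 over the 287 genes tested in this setting. No such nucleus existed in treated males. As mean UMIs per nucleus without scaling to CPM, the medians were 0.63 and -0.66, while the median over all genes tested was -0.54 in females and 1.63 in males. In nuclei that did not meet the rule, the same 60 genes had medians of 1.15 in females and -0.51 in males.

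**Figure D4:**
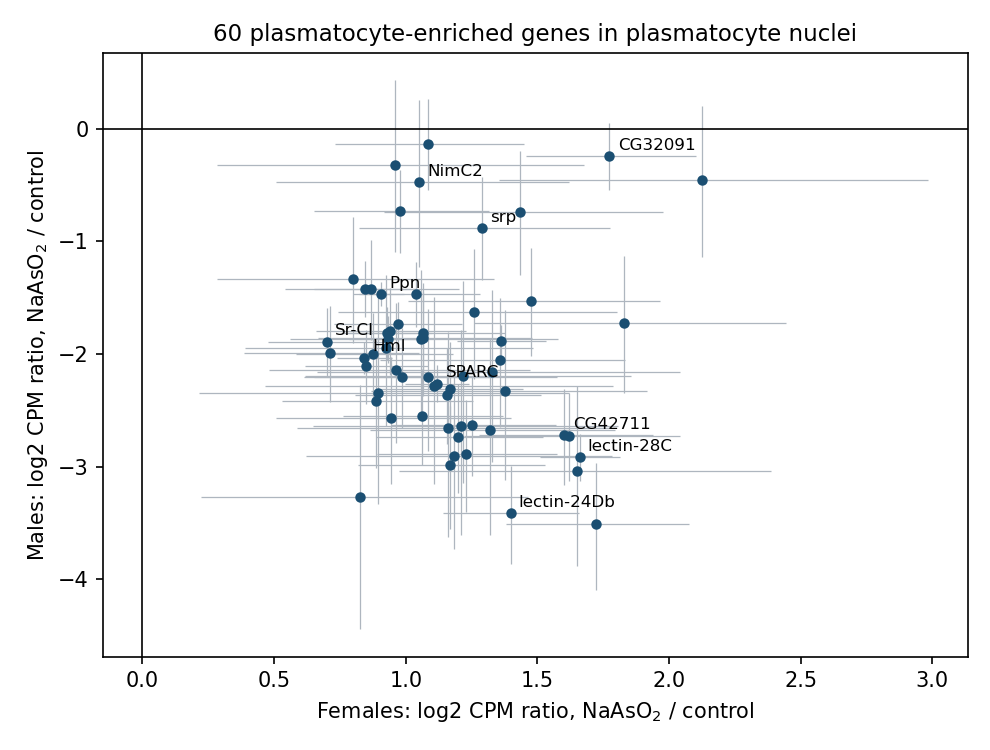
Log2 ratio of CPM, NaAsO2 over control, of the 60 plasmatocyte-enriched genes in plasmatocyte nuclei of females (x axis) and males (y axis), with 95% intervals that cover counting error only. Every point lies right of 0 in females and below 0 in males, with medians of 1.10 and -2.08.

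Genes of engulfment, which encode receptors and also secreted Nimrod B and thioester proteins, followed this direction. Of 12 measured genes of this list in females 7 were at least 2-fold higher and none lower (background 13.8%), and of 13 in males 8 were at least 2-fold lower and none higher (background 11.5%). Among those past 2-fold, NimB1, NimB2, NimB4, NimB5, NimC2 and PGRP-LC also belonged to the plasmatocyte-enriched set. The scavenger receptor gene crq, a CD36 homologue, stood at 674 CPM in treated and 300 CPM in control female plasmatocyte nuclei, a log2 ratio of 1.16 (0.83 to 1.52). In males crq stood at 263 CPM with NaAsO2 and 645 CPM in the control, a log2 ratio of -1.30 (-1.63 to -0.97), which was -0.73 without the fat body-marked nuclei and 0.12 as mean UMIs per nucleus. NimB2, a secreted Nimrod gene, had log2 ratios of 1.16 (0.81 to 1.51) in females and -2.36 (-2.80 to -1.95) in males. NimC2 went with it in females (1.05, 0.51 to 1.62), while its male ratio of -0.48 had an interval that held 0 (-1.23 to 0.26) and was 0.04 without the fat body-marked nuclei.

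The rule genes are given as a description, since having their UMIs made a nucleus a member. Log2 ratios in females and males were 0.84 and -2.03 for Hml, 0.94 and -1.79 for NimC1, 0.89 and -2.42 for eater, a phagocytic receptor gene, and 0.70 and -1.89 for Sr-CI. Those of srp were 1.29 and -0.88 and those of Pxn 0.47 and -1.20, where the male value of Pxn was 0.22 as mean UMIs per nucleus. The male values of srp and Pxn were the least negative of the 6 that were measured.

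Basement membrane genes showed the same split. In females 4 of 12 matrix genes were at least 2-fold higher and none lower (background 13.8%). In males 8 of 13 were at least 2-fold lower and none higher (background 11.5%). All matrix genes past 2-fold also belonged to the plasmatocyte-enriched set, so these counts repeat part of that result. Col4a1, a type IV collagen chain, stood at 3095 CPM with NaAsO2 and 1622 CPM in the control in females, and at 592 CPM with NaAsO2 and 2159 CPM in the control in males. Its log2 ratios were 0.93 (0.78 to 1.08) and -1.87 (-2.08 to -1.66), with -1.32 in males without the fat body-marked nuclei. The partner chain gene vkg had ratios of 1.04 (0.80 to 1.28) and -1.47 (-1.76 to -1.18), and SPARC, a collagen-binding protein gene, 1.12 (1.0 to 1.24) and -2.26 (-2.42 to -2.10). The ratios of Ppn were 0.91 (0.82 to 0.99) and -1.47 (-1.57 to -1.36), and 1.01 and -0.98 without the fat body-marked nuclei. The perlecan gene trol, which the other nuclei held at a higher level, had ratios of -0.20 and 0.14, and 0.36 and 0.46 without the fat body-marked nuclei.

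Lectins and small secreted proteins had wide gaps between treated and control nuclei. Only 2 of the 15 C-type lectin genes reached 50 UMIs, and 11 or 12 of the 15 had no UMI in the plasmatocyte nuclei of a library. Both that reached it, like CG42711 and regucalcin below, belonged to the plasmatocyte-enriched set. lectin-28C was present in 83.2% of treated and 66.2% of control female nuclei thinned to 1000 UMIs, and in 47.5% of treated and 87.9% of control male nuclei. Its log2 ratios were 1.66 (1.51 to 1.81) and -2.91 (-3.13 to -2.71). lectin-24Db (chromosome 2L, 4188123 to 4189284) stood at 1345 and 510 CPM in treated and control females and at 123 and 1308 CPM in treated and control males, log2 ratios of 1.4 (1.14 to 1.66) and -3.41 (-3.86 to -2.99). CG42711, an uncharacterised gene on the same chromosome arm (13930322 to 13931362), had ratios of 1.60 (1.28 to 1.94) and -2.72 (-3.16 to -2.31). Without the fat body-marked nuclei the male ratios of these 3 genes were -2.41, -3.83 and -2.77. regucalcin, a calcium-binding protein gene, stood at 3013 and 1173 CPM in treated and control females (log2 ratio 1.36) and at 1349 and 4970 CPM in treated and control males (-1.88).

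Regulators of blood cell fate and survival had smaller ratios. Of 10 measured in each sex, 1 was at least 2-fold higher in females (Rac2, a small GTPase gene of cell migration, 1.29) and 1 at least 2-fold lower in males (zfh1, -1.15, but 0.27 as mean UMIs per nucleus). These counts were near the backgrounds of 13.8% higher in females and 11.5% lower in males. With the fat body-marked nuclei left out, 3 of the 10 were past 2-fold upward in females, against 225 of 2501 over all genes. The female median of the 10 was 0.65, and 0.83 without those nuclei. In males 0 were past 2-fold downward without them, against 244 of 2584 over all genes, and zfh1 was at -0.85. Pvr, the receptor for survival factors of the PDGF and VEGF type, stood at 831 CPM with NaAsO2 and 423 CPM in the control in females, and at 388 CPM with NaAsO2 and 567 CPM in the control in males. Its log2 ratios were 0.97 (0.68 to 1.27) and -0.55 (-0.85 to -0.25), and without the fat body-marked nuclei the male ratio was 0.19. ush, a partner of GATA factors, had ratios of 0.67 and -0.85, and zfh1, a zinc finger repressor gene, had 0.31 in females. Ser had ratios of 0.96 (0.28 to 1.68) and -0.32, where the male interval held 0 (-1.09 to 0.43).

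Within the 60 enriched genes the male ratios were spread more widely than the female ones, with an SD of 0.78 around the male median and of 0.30 around the female one. In males Sema5c, a semaphorin gene, lay 1.94 above that median on the log2 scale, CG32091 1.84, Ser 1.76, Traf4, an adaptor gene of receptor signalling, 1.62 and NimC2 1.61. At the other end lectin-24Db lay at -1.33, and lectin-28C, at -0.83, was about as far from the median as the SD. In females the same genes lay at -0.01 for Sema5c, 0.68 for CG32091, -0.14 for Ser, 1.03 for Traf4 (0.20 without the fat body-marked nuclei), -0.05 for NimC2, 0.30 for lectin-24Db and 0.56 for lectin-28C. These genes were picked for the text after their values were seen. CG32091 itself stood at 1071 and 313 CPM in treated and control females and at 420 and 497 CPM in treated and control males.

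Lysosomal genes, which plasmatocytes use to digest what they engulf, were higher in treated females in 6 of 15 and lower in none at the 2-fold threshold (background 13.8%). In males 8 of 15 were lower and none higher (background 11.5%). CtsL1, a cathepsin L gene, stood at 2894 and 1512 CPM in treated and control females (log2 ratio 0.94, 0.78 to 1.09) and at 661 and 1501 CPM in treated and control males (-1.18, -1.4 to -0.98, but -0.94 without the fat body-marked nuclei and 0.23 as mean UMIs per nucleus). CtsB, a cathepsin B gene, had ratios of 1.05 (0.87 to 1.24) and -1.86 (-2.10 to -1.63), and Npc2a, a sterol carrier gene, 1.09 (0.64 to 1.56) and -1.48 (-1.93 to -1.05). The proton pump subunit gene Vha55, at similar levels in other nuclei, had ratios of -0.25 and 0.62.

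Clotting and melanization genes were at least 2-fold higher in 6 of 9 in females (background 13.8%) and at least 2-fold lower in 5 of 6 in males (background 11.5%). Most UMIs of PPO1 and PPO2 in treated females lay in 1 nucleus, and without it their female ratios were 3.97 and 2.02. Idgf1 and Idgf2 also belonged to the plasmatocyte-enriched set. Without the fat body-marked nuclei the counts were 5 of 9 in females and 1 of 6 in males. Over all genes these were 225 of 2501 and 244 of 2584. Idgf1, a chitinase-like secreted factor gene with at most 13 UMIs in any nucleus, had log2 ratios of 1.38 (0.87 to 1.92) and -2.33 (-3.12 to -1.61).

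The genes counted in the immune signalling list showed little of the split. In females 1 of 11 was at least 2-fold higher (Myd88, the Toll adaptor gene, 1.39) and none lower, and in males 1 of 9 was higher (bsk, the JNK gene, 1.80) and 1 lower (Inos, -1.42, which the list held although its enzyme makes inositol). The backgrounds were 13.8% higher and 9.32% lower in females, and 7.78% higher and 11.5% lower in males, so these counts were near them. In males 2 were lower without the fat body-marked nuclei. After thinning to 1000 UMIs the male ratio of bsk was -1.74. Inos had a ratio of 0.85 (0.65 to 1.04) in females. Of the receptors for bacterial wall fragments, PGRP-LC of the Imd pathway had ratios of 0.96 (0.48 to 1.47) and -2.14 (-2.79 to -1.54). It was counted with the genes of engulfment and not in the immune signalling list, and it followed the split.

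Antimicrobial peptide and fat body genes had ratios far from 0, and several had most of their UMIs in 1 nucleus. All 3 measured peptide genes were at least 2-fold higher in females (background 13.8%). All 5 were at least 2-fold lower in males (background 11.5%), where their median was -3.90, yet without the fat body-marked nuclei that median was -0.05. In females, without those nuclei, 2 were at least 2-fold higher and 1 at least 2-fold lower, and the median was 1.91, against 1.95 over all plasmatocyte nuclei. Bbd, a gene of the Toll response, had 491 UMIs in male control plasmatocyte nuclei, of which 448 lay in 1 nucleus. Nplp2, a peptide gene abundant in fat body, had 4546, 384, 334 and 5604 UMIs in female NaAsO2, female control, male NaAsO2 and male control plasmatocyte nuclei, with 3576 in 1 treated female nucleus and 4955 in 1 male control nucleus. Its log2 ratios of 3.02 and -4.03 became 1.07 and -1.08 without the fat body-marked nuclei. Nplp2 and Bbd are themselves among the 8 markers that define those nuclei. Removing the nuclei therefore selects on the UMIs of these genes, also for the peptide medians, which include Bbd. TotA, a stress-induced humoral factor gene, had 7072 UMIs in male control nuclei, 6668 of them in 1 nucleus, and a male ratio of -6.41 that became -2.07. apolpp, the lipoprotein gene of the fat body, had ratios of 2.09 and -3.16, which became -0.05 and -1.48. Of the lipid genes 3 of 7 were at least 2-fold higher and none lower in females (background 13.8% higher). In males 5 of 9 were lower and 1 (LpR1, a lipoprotein receptor gene) higher (backgrounds 11.5% and 7.78%). Without those nuclei 0 female genes were past 2-fold in either direction, and 3 male genes were at least 2-fold below the control.

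Metal and oxidative stress genes bear on the exposure, since arsenite binds thiols and induces metallothioneins. MtnA (chromosome 3R, 9783407 to 9784370), a metallothionein gene, had 4458 UMIs in treated and 191 UMIs in control female plasmatocyte nuclei, and 864 UMIs in treated and 370 UMIs in control male plasmatocyte nuclei. Of these, 3616, 19, 228 and 125 UMIs lay in the single nucleus with most, and each of those 4 nuclei was fat body-marked. The median plasmatocyte nucleus held 1, 1, 4 and 1 MtnA UMIs. The log2 ratios of MtnA were 4.0 (3.79 to 4.21) in females and 1.26 (1.09 to 1.44) in males, and 0.90 and 0.72 without the fat body-marked nuclei, where the other nuclei had 0.67 and 0.17. After thinning to 1000 UMIs and without the fat body-marked nuclei, MtnA had a UMI in 53.4% of treated and 38.2% of control female plasmatocyte nuclei and in 51.0% of treated and 51.8% of control male ones. The exact binomial 95% intervals overlapped in each sex, 44.5% to 62.2% against 26.7% to 50.8% in females and 36.3% to 65.6% against 42.1% to 61.4% in males, and the difference itself was not tested.

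The iron storage genes were found in more nuclei than MtnA, with a UMI of Fer2LCH in 156, 75, 55 and 154 plasmatocyte nuclei and of MtnA in 118, 60, 47 and 109 in female NaAsO2, female control, male NaAsO2 and male control brains. Both ferritin genes lie on chromosome 3R and overlap (Fer1HCH at 30385573 to 30388178 and Fer2LCH at 30387804 to 30390584), so their UMIs may be split uncertainly between them. Fer2LCH, the ferritin light chain gene, stood at 5827 and 1829 CPM in treated and control female plasmatocyte nuclei and at 1273 and 4449 CPM in treated and control male ones, log2 ratios of 1.67 (1.54 to 1.81) and -1.81 (-1.95 to -1.66). Fer1HCH, the heavy chain gene, had ratios of 1.42 (1.24 to 1.61) and -1.09 (-1.29 to -0.88), the male one being 0.33 as mean UMIs per nucleus. Without the fat body-marked nuclei these were 1.88 and -1.80 for Fer2LCH and 1.57 and -1.32 for Fer1HCH. In the other nuclei the ratios were 0.20 and -0.87 for Fer2LCH and 0.19 and -0.32 for Fer1HCH. MsrA, a methionine sulfoxide reductase gene, was higher in both sexes at 1.88 and 2.02, but 45 of its 54 UMIs in treated females lay in 1 nucleus and the ratios without fat body-marked nuclei were -0.19 in females and 1.15 in males. In the list as a whole 8 of 17 genes were at least 2-fold higher and none lower in females, and 2 of 16 were higher and 5 lower in males. These counts were 4 and 2 in females and 1 and 7 in males without the fat body-marked nuclei. Over all genes tested, 13.8% were higher and 9.32% lower in females, and 7.78% and 11.5% in males. Without the fat body-marked nuclei these were 225 and 136 of 2501 in females and 99 and 244 of 2584 in males.

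Heat shock and unfolded protein response genes were at least 2-fold higher in 2 of 8 in females (background 13.8%) and lower in 4 of 9 in males (background 11.5%). Without the fat body-marked nuclei these counts were 1 and 3, against 225 of 2501 and 244 of 2584 over all genes. Thor, the translation repressor gene of the insulin and stress pathways, stood at 245 and 74.3 CPM in treated and control females and 68.8 and 184 CPM in treated and control males, log2 ratios of 1.72 (1.06 to 2.44) and -1.42 (-2.10 to -0.78). In the other nuclei its ratios were 0.46 and 0.86, so the male ratio had the opposite sign there. Hsp83, the Hsp90 chaperone gene, had ratios of -0.15 (-0.49 to 0.20; 0.18 without the fat body-marked nuclei) and -1.73 (-2.17 to -1.32) in plasmatocyte nuclei and of -0.58 and -2.17 in the other nuclei.

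**Figure D5:**
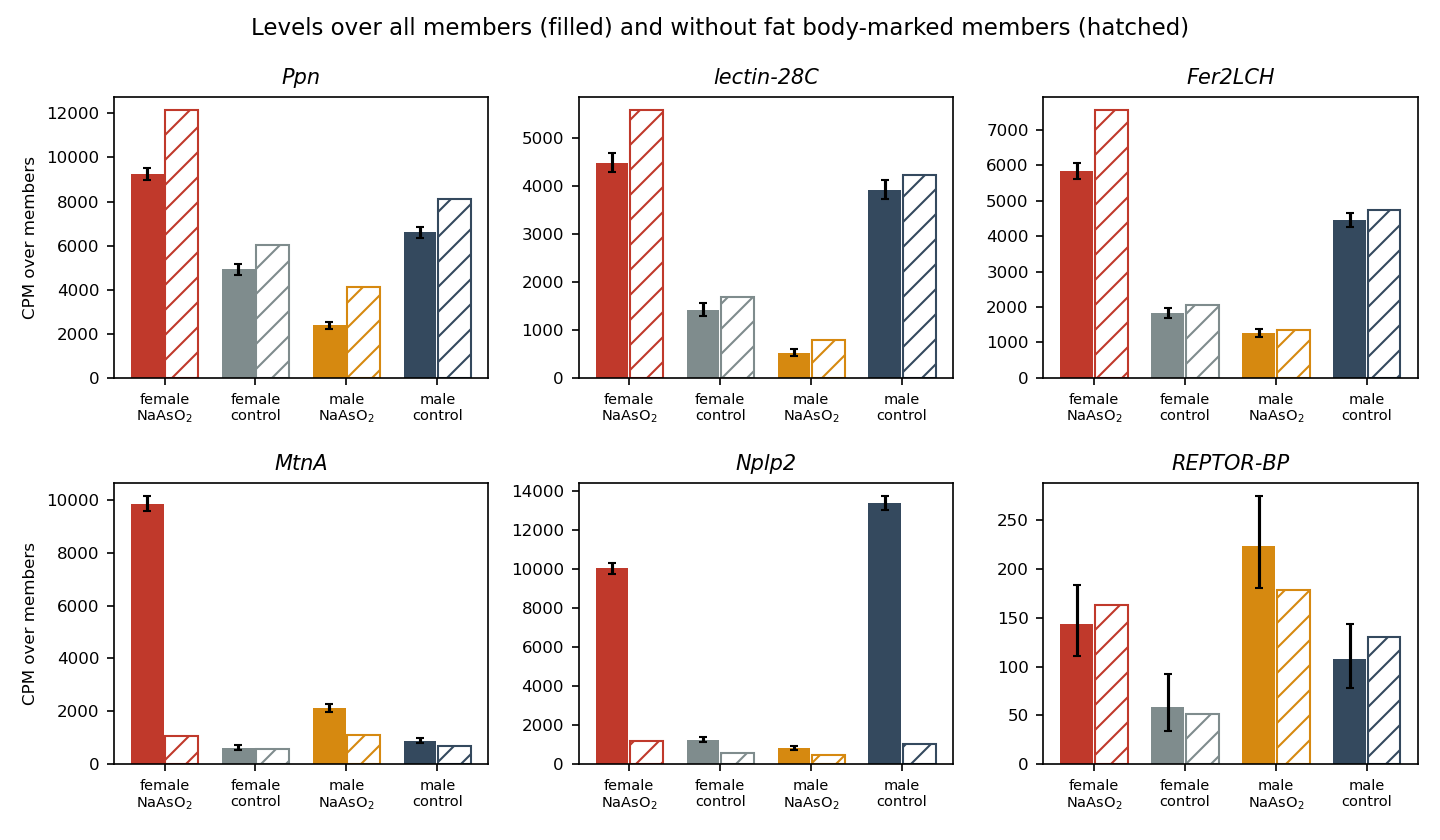
Levels of 6 genes in CPM (y axis) over all plasmatocyte nuclei of a library (filled bars, with exact Poisson 95% intervals for counting error) and without the fat body-marked ones (hatched bars). Ppn, lectin-28C and Fer2LCH keep the order of the libraries without those nuclei, whereas MtnA in treated females stands at 9847 CPM over all plasmatocyte nuclei and at 1057 CPM without the fat body-marked ones.

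Among 2327 genes measured in both, 325 were above 0 in both sexes, 200 below 0 in both, 724 higher in females and lower in males, and 1078 lower in females and higher in males. These counts take any ratio off 0, with no threshold. The medians of the neuron markers (-0.90 in females and 0.71 in males) and of all genes tested (-0.07 and 0.21) also had opposite signs. Their part in these counts was not tested. REPTOR-BP, a transcription factor gene of the TORC1 starvation response, stood at 144 and 58.2 CPM in treated and control females and at 224 and 108 CPM in treated and control males, log2 ratios of 1.30 (0.53 to 2.14) and 1.06 (0.52 to 1.60). The female ratio was 1.68 without the fat body-marked nuclei and the male one 0.45, with an interval that held 0 (-0.26 to 1.16), and after thinning to 1000 UMIs the male ratio of REPTOR-BP was -0.63. InR, the insulin receptor gene, stood at 822 and 456 CPM in treated and control females and at 803 and 437 CPM in treated and control males. Its ratios of 0.85 (0.57 to 1.14) and 0.88 (0.61 to 1.15) had intervals above 0, and they were 0.60 and 1.0 without the fat body-marked nuclei. In the other nuclei they were 0.44 and 1.07. Obp44a, an odorant-binding protein gene, was lower in both sexes, at 415 and 998 CPM in treated and control females and 526 and 1222 CPM in treated and control males, with ratios of -1.27 (-1.53 to -1.0) and -1.22 (-1.45 to -0.98), the male one being -2.30 without the fat body-marked nuclei and 0.20 as mean UMIs per nucleus. The other nuclei had -0.35 and -3.16 for Obp44a.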

How the data were processed

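Single nucleus RNA sequencing libraries of pooled brains were made by the authors with droplet capture, who deposited raw UMI counts for each gene in each nucleus. The methods and the submitters' processing notes give Cell Ranger 3.1, whereas the matrix headers name 7.0.1, and the genome was release 6 of D. melanogaster. Of 17772 genes, 17705 were matched by identifier to RefSeq release 6 for symbols and coordinates. Strand use in counting is not given in the sources used here.

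Samples were grouped by sex and treatment. A nucleus was a plasmatocyte nucleus with at least 3 of 7 rule genes and no repo UMI. The members and the gene lists were chosen with earlier results of these data known. Fat body-marked nuclei had at least 5 of 8 fat body markers, and neuron-marked nuclei at least 3 of 6 neuronal genes and fewer than 3 rule genes. UMIs were summed over members, and CPM (exact Poisson), log2 ratios (exact conditional binomial) and shares (Clopper-Pearson) were given 95% intervals. With 1 library per group there was no test, and nuclei were not used as replicates. Ratios needed at least 50 UMIs over both libraries. Named genes were the rule genes, list members, the 15 highest over other nuclei (pseudocount 5 CPM), the 6 largest of each direction pattern across sexes and the 8 largest in each direction in each sex, from which those with values in the text were picked after their values were seen. The 16-fold set, genes set against its median, and gene spans were chosen after seeing the data.

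Alternatives were no scaling, centring on the median gene, equal weight per nucleus, thinning to 1000 UMIs, a common depth minimum, 2 or 4 rule genes, no condition on repo, removal of nuclei with 2 or more neuronal UMIs, and minimums of 20 or 200 UMIs per gene. Added after seeing the data were removal of fat body-marked nuclei, removal of the deepest member, thinning with 4 rule genes, the enriched set without its rule genes, and PPO1 and PPO2 without 1 nucleus. No doublet caller was run. Neuronal and fat body-marked nuclei were removed as alternatives, which does not take the place of a doublet call. Of the listed symbols, Hemo, magro and Amnl had no match. Sums, ratios, intervals and thinning were tested on simulated data. Python 3.11.15, NumPy 2.4.6, SciPy 1.17.1, pandas 2.3.3 and matplotlib 3.10.9 were used.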

Additional observations from a re-analysis of the deposited data

Results flagged for a closer look

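The log2 ratios of NaAsO2 over control had opposite signs in the plasmatocyte nuclei of females and males for the following genes, and the difference between the sexes was not tested, since each group was 1 library. The median of the 60 plasmatocyte-enriched genes differed by 3.18 on the log2 scale between females and males. Among lectins and secreted proteins the difference was 4.57 for lectin-28C, 4.81 for lectin-24Db, 4.32 for CG42711, 3.24 for regucalcin and 3.70 for Idgf1. It was 2.46 for the receptor gene crq and 3.52 for NimB2, which encodes a secreted protein, and among matrix genes 2.51 for vkg and 3.38 for SPARC. It was 2.91 for CtsB and 2.57 for Npc2a of the lysosome, 2.51 for Fer1HCH and 3.48 for Fer2LCH of ferritin, and 3.14 for Thor. It was 7.05 for Nplp2, 5.25 for apolpp and 7.12 for Bbd, and without the fat body-marked nuclei 2.15, 1.43 and 1.52. In that setting the signs were no longer opposite for apolpp, below 0 in both sexes, or for Bbd, above 0 in both. Nplp2 and Bbd are themselves fat body markers, so the removal selects on their own UMIs. Without those nuclei the median of the enriched genes differed by 2.89, lectin-28C by 4.13, lectin-24Db by 5.32, crq by 1.98 and Fer2LCH by 3.68.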

How the results depend on the processing

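No paired analysis was possible because each group held 1 library, and no library could be left out for the same reason. The settings without fat body-marked nuclei, without the deepest nucleus, and thinned with 4 rule genes were chosen after seeing the data. Shares are given in the order female NaAsO2, female control, male NaAsO2 and male control. They were 1.41%, 1.09%, 2.07% and 2.0% with at least 2 rule genes, and 0.517%, 0.302%, 0.320% and 0.839% with at least 4. Among nuclei with under 2 neuronal UMIs they were 3.48%, 0.996%, 0% (0 of 29) and 3.22%, and after thinning with 4 rule genes 0.426%, 0.114%, 0.120% and 0.441%. Thinning alone gave 0.246% in female control, 0.19% in male NaAsO2 and 0.753% in male control libraries, and a depth minimum gave 0.870% in female NaAsO2.

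Counts of genes at least 2-fold higher and lower in females were 132 and 680 of 2501 genes tested without scaling. They were 75 and 41 of 976 after thinning, and 58 and 12 of 287 with under 2 neuronal UMIs. With at least 20 UMIs per gene they were 682 and 372 of 4015, and with at least 200 they were 125 and 90 of 858. Without fat body-marked nuclei they were 170 and 92 of 2004. Equal weight per nucleus gave 218 of 2501 higher, and at least 2 rule genes gave 40 of 3999 lower. In males the counts higher and lower were 1991 and 94 of 2584 without scaling, and 32 and 80 of 846 after thinning. With at least 20 UMIs they were 402 and 571 of 4198, and with at least 200 they were 64 and 102 of 895. Without fat body-marked nuclei they were 57 and 154 of 1837. Centring on the median gene gave 104 of 2584 higher and leaving out the deepest nucleus 112 of 2340. Genes that reach the minimum differ between these settings.

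The median of the plasmatocyte-enriched genes kept its sign in every setting that gave a value. In females it was 0.63 without scaling, 0.93 after thinning, and 1.44 and 0.90 with at least 2 and 4 rule genes. With under 2 neuronal UMIs it was 0.31 in females, where all genes tested had a median of 0.23. In males it was -0.66 without scaling, -2.29 after centring, -1.58 with equal weight per nucleus, -1.34 after thinning, -1.85 above the depth minimum, -2.51 and -0.97 with at least 2 and 4 rule genes, -1.70 without fat body-marked nuclei and -1.95 without the deepest nucleus. With under 2 neuronal UMIs the male median could not be had, since no treated male plasmatocyte nucleus remained.

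Over all settings, the ratios of named genes took 618 values where the ratio given in the report was past 2-fold, and 17 of these had the opposite sign. Of 324 values where it was under 2-fold, 63 had the opposite sign. The 17 are as follows. Without scaling, the male ratios became 0.22 for Pxn, 0.12 for crq, 0.27 for zfh1, 0.23 for CtsL1, 0.33 for Fer1HCH and 0.20 for Obp44a. With under 2 neuronal UMIs, the female ratios were -0.83 for NimC2, -0.83 for Npc2a, -0.42 for REPTOR-BP and -1.68 for Traf4. Thinning gave -0.47 for MsrA in females, and -0.63 for REPTOR-BP and -1.74 for bsk in males. Without fat body-marked nuclei, MsrA was -0.19 and apolpp -0.049 in females. In the same setting Bbd, itself a fat body marker, was 0.39 in males. Without the deepest nucleus MsrA was -0.39 in females. The cause of each change was not tested.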

Other observations

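The ratio of a plasmatocyte-enriched gene stood with the genomic span of the gene, a description over 60 genes that share the same libraries. Spearman's rho between the span in RefSeq release 6 and the log2 ratio of NaAsO2 over control was 0.58 in male and -0.32 in female plasmatocyte nuclei. In males the genes longer than the median span of 2788.5 bases had a median ratio of -1.80 and the shorter ones -2.34, and in females 1.01 and 1.19. Without the fat body-marked nuclei rho was 0.67 in males and -0.21 in females. In the nuclei that did not meet the rule, rho over these 60 genes was -0.06 in males and -0.41 in females. Over all genes tested, rho in plasmatocyte nuclei was 0.31 in males and -0.48 in females, and in the other nuclei 0.52 and -0.39.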
